A study of Sus scrofa with 67 samples.

Results

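The endometrium, the inner lining of the uterus, was compared between day 18 of the porcine oestrous cycle and day 0, the onset of oestrous behaviour, to ask which genes had not returned to their oestrus level late in the cycle. The comparison holds the 6 endometrial libraries labelled with these days, 3 of each, out of 22 endometrial libraries and 66 libraries in the count table. All 15341 genes with enough counts for a test were included, out of 25322 in the table. The series followed endometrium, oviduct and ovary from day 0 to day 18 in steps of 3 days by sequencing poly-A RNA. Both groups came from untreated crossbred gilts (Landrace × Yorkshire), young female pigs of 6 to 8 months that had shown at least 2 oestrous cycles of normal length, and by the study's methods 3 gilts were used per day. Myometrium had been removed from the sampled tissue, which came from the mid-horn of the uterus. Different days are different gilts, so no animal was followed over time. The p-values rest on the spread between libraries of the same day, pooled over all days of the endometrium and shared in part across genes. The count table holds 4 endometrial libraries of day 15, and the labels do not name the gilt of a library.

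The pig uterus runs through its cycle under the ovarian steroids. After ovulation the corpora lutea secrete progesterone and the endometrial glands turn secretory. Late in the luteal phase, in the absence of embryos, the endometrium releases prostaglandin F2-alpha, the corpora lutea regress, progesterone declines and the gilt approaches the next oestrus. Cytosolic phospholipase A2 frees the arachidonic acid from which the cyclooxygenases make prostaglandins, and oxytocin acting on its receptor is a known stimulus of that release. Day 18 lies in the proestrous stretch between luteal regression and the next oestrus.

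The libraries of day 0 held 9555136 to 10136163 counts and those of day 18 held 9372976 to 11485007. At these depths 3 counts, taken as the lowest detectable level, correspond to 0.277 to 0.301 CPM on day 0 and to 0.245 to 0.335 CPM on day 18. CPM are read counts scaled to a common library total, here with library sizes adjusted by the trimmed mean of M values (TMM), and all levels are given on that scale. Library 1 of day 18 stood apart from the other day 18 libraries. Its root mean square difference in log2(CPM + 1) over all genes was 0.583 from the mean of the other day 18 libraries and 0.504 from the mean of day 15, while it was 0.791 from the mean of day 0. Libraries 2 and 3 of day 18 lay nearest to their own day, at 0.445 and 0.359, with day 0 next at 0.462 and 0.479. Library 1 of day 0 was slightly nearer to the mean of day 3, at 0.411, than to its own day, at 0.426. Library 2 of day 0 was almost as far from its own day, at 0.458, as from day 18, at 0.467. These distances are descriptions, and each mean rests on 2 to 4 libraries.

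**Figure D1:**
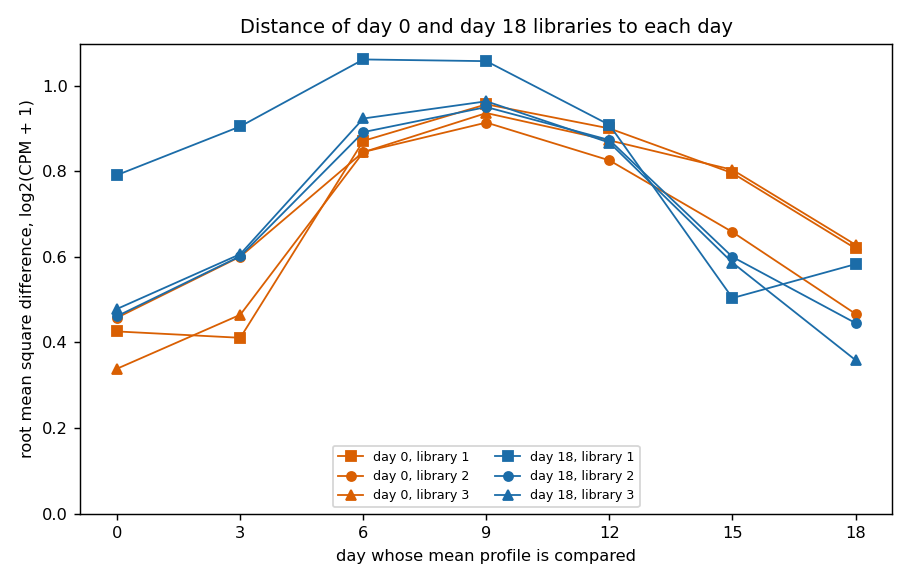
Root mean square difference in log2(CPM + 1) over all genes tested (vertical axis) between each library of day 0 or day 18 and the mean profile of each day (horizontal axis, day of the cycle), a library's own value being left out of its own day's mean. Library 1 of day 18 (blue squares) has its lowest value at day 15 (0.504), whereas the other day 18 libraries have theirs at day 18 (0.445 and 0.359).

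The labelled tissue was checked against markers of the cells it could hold. Epithelial markers (4 tested of 5: EPCAM, CDH1, KRT8 and KRT18) summed to 1720 to 1920 CPM on day 0 and 1730 to 2350 CPM on day 18. Stromal markers (4 tested of 5: VIM, DCN, LUM and COL3A1) summed to 17700 to 21700 CPM on day 0 and to 9310, 14000 and 14200 CPM in libraries 1 to 3 of day 18. Smooth muscle markers (5 of 5, among them ACTA2 and MYH11) summed to 571 to 915 CPM on day 0 and 665 to 969 CPM on day 18, so these genes were detected although myometrium had been removed. Endothelial markers (3 tested of 5) summed to 387 to 467 CPM and 483 to 540 CPM, leukocyte markers (3 tested of 5) to 39.7 to 67 CPM and 35 to 48.5 CPM, and erythrocyte markers (2 tested of 3) to 13.7 to 182 CPM and 33.2 to 115 CPM, on day 0 and day 18 in turn. None of the tested markers was at 0 and none was called different between the days by edgeR's quasi-likelihood test, while DESeq2's Wald test called COL3A1 lower on day 18. In bulk tissue, fewer cells of a type and less RNA per cell cannot be told apart.

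Few genes passed the test between day 18 and day 0. At a Benjamini-Hochberg adjusted p under 0.05, edgeR's quasi-likelihood test called 29 of 15341 genes (0.189%), 20 higher on day 18 (0.13%) and 9 lower (0.0587%). The higher genes included PLA2G4A, which encodes the cytosolic phospholipase A2 that frees arachidonic acid, ASAH1 (acid ceramidase), WLS (the carrier needed for Wnt secretion), IFNE (interferon epsilon) and SMOC1 (a secreted matricellular protein). Among the lower genes were MYCN (a growth-promoting transcription factor), CHIA (acidic chitinase), CX3CR1 (the fractalkine receptor of monocytes and macrophages) and PARP1 (a DNA damage sensor). In all 29 genes every library of day 18 lay beyond every library of day 0, which was the case for 13.2% of all genes on the higher side and 12.5% on the lower side. The absolute log2 fold changes of the called genes ran from 0.72 to 6.89. Of 1513 genes with an absolute log2 fold change over 1, 27 were called. Before adjustment 2296 genes (15%) had a p under 0.05, 1143 higher (7.45%) and 1153 lower (7.52%). The genes just inside the threshold were ENSSSCG00000004650 and CX3CR1 (adjusted p = 0.0459 for both), and those just outside were FGD2 (adjusted p = 0.0515) and P3H1 (adjusted p = 0.0578).

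The count of calls rested on single libraries. It fell to 0 without library 1 of day 18 or without library 3 of day 0, to 3 without library 1 of day 0 or without library 3 of day 18, and was 109 without library 2 of day 0 and 104 without library 2 of day 18. In the fits that gave 0 calls, 1101 genes without library 1 of day 18 and 1272 genes without library 3 of day 0 had an unadjusted p under 0.05. DESeq2's Wald test on all libraries called 353 genes, all 29 among them. In 18 of the 20 higher genes library 1 of day 18 was the highest of its day, and in 6 of the 9 lower genes it was the lowest, so fold changes without that library are given beside many of the genes. Whether that gilt was at another point of the cycle was not tested.

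**Figure D2:**
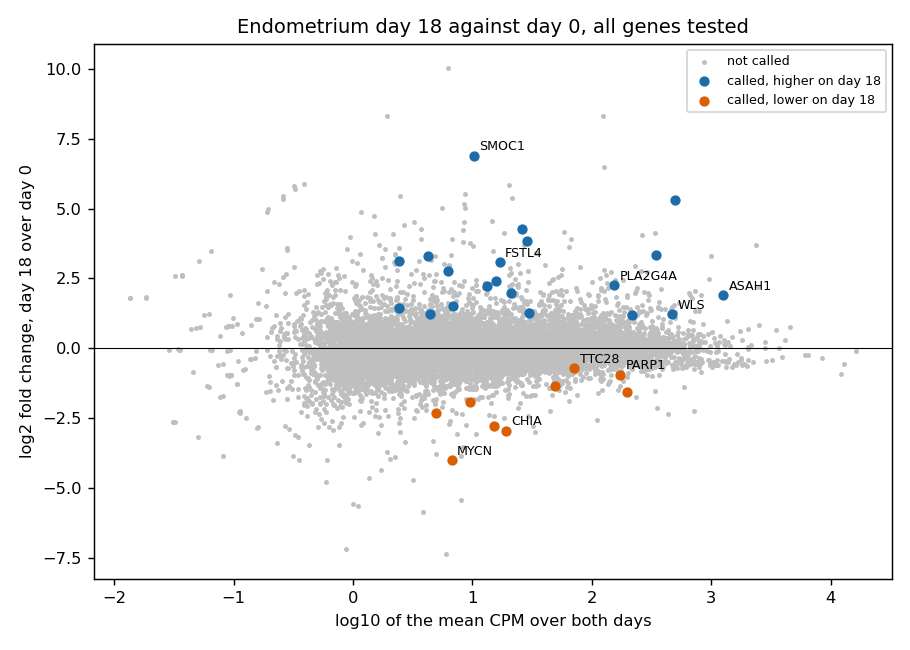
Log2 fold change on day 18 over day 0 (vertical axis) against the log10 mean CPM of both days (horizontal axis) for the genes tested, with the 20 genes called higher in blue and the 9 called lower in orange. Called genes lie at the edge of the cloud over a wide range of levels, and several grey points with larger fold changes were not called.

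**Figure D3:**
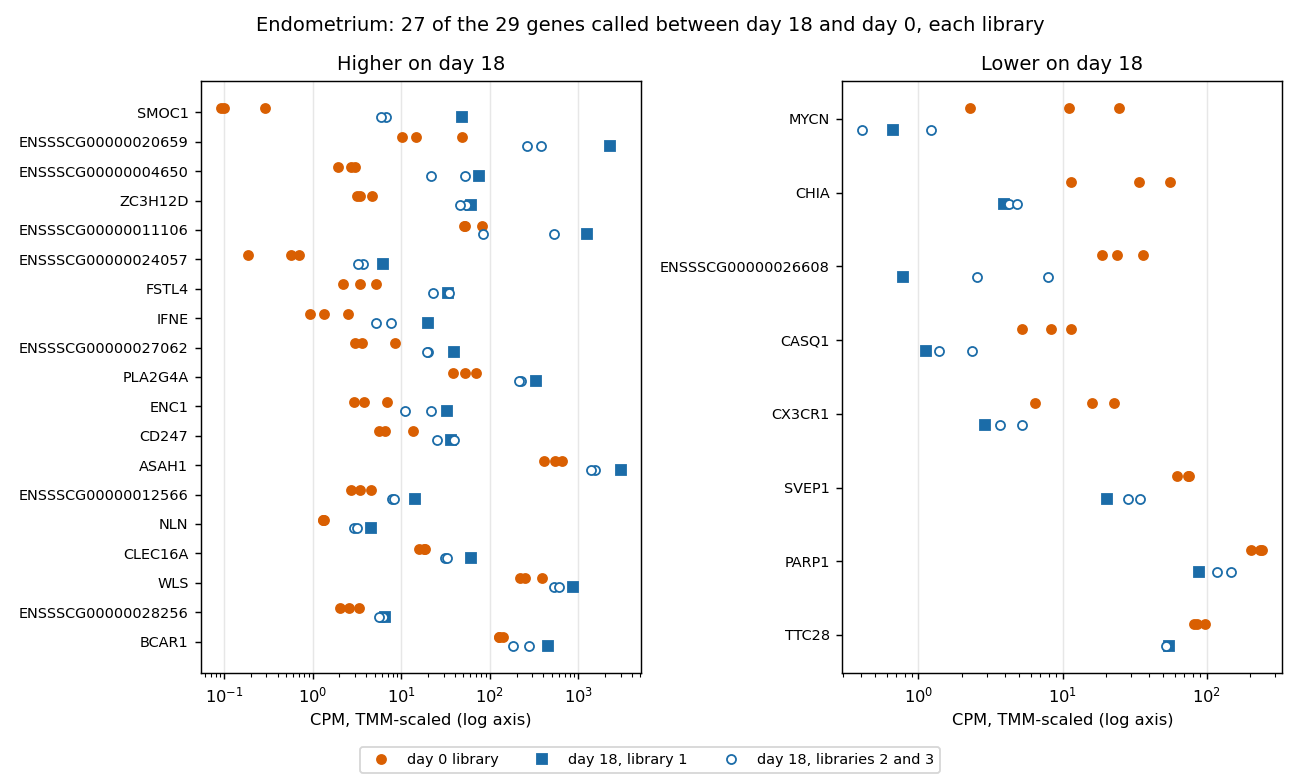
CPM of each library on a log axis for 27 of the 29 called genes, ordered by log2 fold change, with day 0 libraries as orange circles, library 1 of day 18 as a filled square and libraries 2 and 3 of day 18 as open circles. The groups do not overlap in any of the genes shown, and the square lies highest of day 18 in 17 of the 19 higher genes shown.

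Of the gene lists examined, only that of prostaglandin and oxytocin signalling held a called gene, PLA2G4A of the prostaglandin synthesis pathway. PLA2G4A was at 70.1, 38.4 and 52.6 CPM in the day 0 libraries and at 328, 225 and 213 CPM in the day 18 libraries. Its lowest day 18 library was thus well above its highest day 0 library, and its log2 fold change was 2.25 ± 0.35 (SE, n = 3 against 3, adjusted p = 0.0218, edgeR). Without library 1 of day 18 the log2 fold change was 2.03 and was not called (adjusted p = 0.143, edgeR). PTGS2, the inducible cyclooxygenase next in the pathway, was at 42.6, 26.2 and 41.7 CPM on day 0 and at 946, 593 and 384 CPM on day 18. The groups were far apart, but the day 18 libraries differed from each other by more than those of day 0, and the log2 fold change of 4.12 ± 0.97 was not called (adjusted p = 0.0840, edgeR, and 0.0018 with DESeq2). OXTR, the oxytocin receptor, was at 6.82, 3.82 and 9.41 CPM on day 0 and at 90.3, 10.5 and 30.3 CPM on day 18, with a log2 fold change of 2.70 ± 0.87 (adjusted p = 0.173, edgeR, and 0.0414 with DESeq2). Library 2 of day 18 lay only just above the highest of day 0, and without library 1 the log2 fold change was 1.61.

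Over the 14 tested genes of prostaglandin and oxytocin signalling (of 18 listed), 1 was called higher, PLA2G4A, and 0 lower, where 0.13% of all genes were called higher and 0.0587% lower. A further 5 had an unadjusted p under 0.05 on the higher side (OXTR, PTGER2, PTGER4, PTGS1 and PTGS2) and 0 had one on the lower side, beside 7.45% and 7.52% of all genes. DESeq2 called 4 higher (OXTR, PLA2G4A, PTGER2 and PTGS2) and 0 lower, of 353 genes it called among 20626. The median log2 fold change of the list was 1.12, against -0.0089 over all genes tested, and it was 0.43 without library 1 of day 18. In that fit 2 of the listed genes had an unadjusted p under 0.05 on the higher side (PLA2G4A and PTGS2) and 0 on the lower side. Over all genes of that fit 1101 of 15563 had one in either direction. The prostaglandin E2 receptor genes differed in how far single libraries went. PTGER2 was at 25.5, 73.1 and 47.3 CPM on day 0 and at 581, 60.3 and 148 CPM on day 18, so the groups overlapped. PTGER4 was at 32.1, 30.2 and 24.1 CPM on day 0 and at 117, 38.9 and 46.3 CPM on day 18, which separated the days by little outside library 1. The terminal synthases tested had fitted levels near those of oestrus. PTGES, PTGES2 and PTGES3, which make prostaglandin E2, had log2 fold changes of -0.0075 ± 0.47, 0.079 ± 0.30 and -0.081 ± 0.20. PTGIS, the prostacyclin synthase, had one of -0.00037 ± 0.31. No prostaglandin F synthase was among the tested genes of the list. The summed level of the list was 539 to 564 CPM on day 0 and 2490, 1320 and 1180 CPM on day 18.

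ASAH1, the lysosomal acid ceramidase that releases sphingosine from ceramide, was at 649, 411 and 546 CPM on day 0 and at 3040, 1530 and 1400 CPM on day 18. Every day 18 library held more than any day 0 library, with a log2 fold change of 1.89 ± 0.37 (adjusted p = 0.0458, edgeR), or 1.45 without library 1. In the short list that the study itself chose on these samples from the eicosanoid, sphingolipid and aldosterone-regulated sodium pathways (5 tested of 7), 0 genes were called in either direction. At an unadjusted p under 0.05, 2 were higher (PTGS2 and PTGER2) and 0 lower, beside 7.45% and 7.52% of all genes. Both are also in the prostaglandin list. DESeq2 called those same 2 genes. SGPP1 and SGPP2, sphingosine-1-phosphate phosphatases, had log2 fold changes of 0.083 ± 0.64 and -0.34 ± 0.49.

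SMOC1, WLS and FSTL4 were among the higher genes. SMOC1 had 1, 3 and 1 reads in the day 0 libraries, at or under the lowest detectable level, and 437, 83 and 72 reads in the day 18 libraries, or 48.9, 6.78 and 5.88 CPM. The pooled counts of 5 and 592 give a ratio of 111 after scaling by depth (95% exact interval of the counting error, 47.2 to 343), and the fitted log2 fold change of 6.89 ± 1.26 (adjusted p = 0.0374, edgeR) depends on the prior count. Without library 1 it was 5.21. WLS was at 248, 383 and 218 CPM on day 0 and at 862, 526 and 599 CPM on day 18, a log2 fold change of 1.23 ± 0.24 (adjusted p = 0.0458, edgeR). Its lowest day 18 library and its highest day 0 library were separated by less than the spread within day 0. FSTL4, a follistatin-like gene, was at 5.11, 2.20 and 3.41 CPM on day 0 and at 33.4, 34.8 and 22.6 CPM on day 18, with the lowest adjusted p of all genes (log2 fold change 3.08 ± 0.44, adjusted p = 0.0179, edgeR). Without library 1 the log2 fold change of FSTL4 was nearly the same, at 3.01, but the gene was then not called (adjusted p = 0.0872, edgeR).

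IFNE encodes interferon epsilon, a type I interferon known from the epithelium of the female reproductive tract. It was at 2.51, 1.34 and 0.923 CPM on day 0 and at 20.1, 5.15 and 7.68 CPM on day 18, a log2 fold change of 2.78 ± 0.48 (adjusted p = 0.0374, edgeR), or 2.02 without library 1. All day 18 libraries were above all day 0 libraries. The interferon and antigen presentation list (8 tested of 14, with MX1, MX2 and IFIT1 among them) had 0 genes called and 0 with an unadjusted p under 0.05, and 0 called by DESeq2. MX1, a classical interferon-induced gene, had a log2 fold change of 0.27 ± 0.43.

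CD247, ZC3H12D, CX3CR1 and CHIA are called genes that were not on any of the lists. CD247, the zeta chain of the T cell receptor, was at 5.62, 13.7 and 6.46 CPM on day 0 and at 36.4, 25 and 39.2 CPM on day 18 (log2 fold change 1.96 ± 0.31, adjusted p = 0.0218, edgeR). The change was nearly as large without library 1, at 1.90, but CD247 was then not called (adjusted p = 0.143, edgeR). ZC3H12D, a zinc finger protein that limits inflammatory transcripts, was at 3.41, 3.15 and 4.61 CPM on day 0 and at 60.6, 54.1 and 45.6 CPM on day 18 (log2 fold change 3.84 ± 0.71, adjusted p = 0.0374, edgeR). Each group was tight and the groups lay far apart. Without library 1 the log2 fold change of ZC3H12D was 3.74, but the gene was then not called (adjusted p = 0.223, edgeR). CX3CR1 was at 15.9, 6.49 and 22.7 CPM on day 0 and at 2.91, 3.68 and 5.23 CPM on day 18 (log2 fold change -1.92 ± 0.39, adjusted p = 0.0459, edgeR). CHIA was at 55.5, 11.4 and 34.1 CPM on day 0 and at 3.91, 4.25 and 4.82 CPM on day 18 (log2 fold change -2.95 ± 0.49, adjusted p = 0.0374, edgeR). For both lower genes library 2 of day 0 was the lowest of its day and nearest to day 18. PTPRC, the pan-leukocyte marker CD45, was at 33.9, 13.3 and 35.5 CPM on day 0 and at 9.17, 13.6 and 22.4 CPM on day 18 (adjusted p = 0.282, edgeR), again with library 2 of day 0 low. The other leukocyte markers tested, CD14 and CD68, had log2 fold changes of 0.080 ± 0.34 and -0.60 ± 0.30 and were not called. The part of leukocyte numbers in these differences was not tested.

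Further higher genes with a symbol were of varied function. ENC1, an actin-binding kelch protein, was at 3.81, 6.97 and 2.95 CPM on day 0 and at 32.4, 11.1 and 21.6 CPM on day 18 (log2 fold change 2.24 ± 0.44, adjusted p = 0.0458, edgeR, or 1.83 without library 1). The day 18 libraries spread widely above a low day 0. NLN, the peptidase neurolysin, was at 1.30, 1.34 and 1.29 CPM on day 0 and at 4.58, 2.94 and 3.19 CPM on day 18 (log2 fold change 1.43 ± 0.25, adjusted p = 0.0374, edgeR). CLEC16A, a regulator of autophagy, was at 15.9, 18.6 and 18.1 CPM on day 0 and at 61.0, 31.5 and 32.4 CPM on day 18 (log2 fold change 1.24 ± 0.23, adjusted p = 0.0374, edgeR, or 0.86 without library 1). BCAR1, a focal adhesion scaffold outside the rule for named genes and given after its values were seen, was at 127, 141 and 126 CPM on day 0 and at 449, 183 and 276 CPM on day 18 (log2 fold change 1.20 ± 0.24, adjusted p = 0.0459, edgeR, or 0.81 without library 1). The last 3 genes had day 0 libraries that lay close together.

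The genes lower on day 18 were led by MYCN, at 11, 2.29 and 24.6 CPM on day 0 and at 0.671, 1.23 and 0.408 CPM on day 18 (log2 fold change -4.01 ± 0.71, adjusted p = 0.0374, edgeR). Its day 0 libraries differed widely, and the lowest of them was close to the highest of day 18. PARP1, the poly(ADP-ribose) polymerase that senses DNA breaks, was at 244, 202 and 235 CPM on day 0 and at 89.0, 147 and 118 CPM on day 18 (log2 fold change -0.95 ± 0.18, adjusted p = 0.0375, edgeR). SVEP1, a large extracellular matrix protein, was at 75.4, 62.0 and 74.0 CPM on day 0 and at 20.2, 34.5 and 28.4 CPM on day 18 (log2 fold change -1.34 ± 0.26, adjusted p = 0.0458, edgeR). Both had library 1 lowest among the day 18 libraries, and without it their log2 fold changes were -0.78 and -1.16. CASQ1, the calcium store protein calsequestrin, was at 8.32, 5.25 and 11.4 CPM on day 0 and at 1.12, 2.37 and 1.39 CPM on day 18 (log2 fold change -2.34 ± 0.46, adjusted p = 0.0458, edgeR). TTC28 was at 82.0, 85.6 and 97.7 CPM on day 0 and at 55.1, 53.5 and 52.4 CPM on day 18, the smallest change among the called genes (log2 fold change -0.72 ± 0.14, adjusted p = 0.0458, edgeR).

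Of the 29 called genes, 8 had no symbol in the reference table, 7 of them higher and 1 lower. The following 3 are named because of their size or a later result, after their values were seen. ENSSSCG00000020659 had a median of 14.8 CPM and a highest value of 48.6 CPM on day 0 and was at 2260, 377 and 259 CPM on day 18 (log2 fold change 5.30 ± 1.04, adjusted p = 0.0458, edgeR, or 3.70 without library 1). ENSSSCG00000011106 was at 52.1, 81.6 and 50.9 CPM on day 0 and at 1250, 84.1 and 535 CPM on day 18 (log2 fold change 3.34 ± 0.59, adjusted p = 0.0374, edgeR, or 2.33 without library 1). Library 2 of day 18 barely exceeded day 0 for the latter. ENSSSCG00000026608 was at 24.0, 18.8 and 36.3 CPM on day 0 and at 0.783, 7.93 and 2.53 CPM on day 18 (log2 fold change -2.79 ± 0.54, adjusted p = 0.0458, edgeR, or -2.33 without library 1).

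The receptors of the ovarian steroids were both at lower levels on day 18 without passing the test. ESR1, oestrogen receptor alpha, was at 629, 597 and 710 CPM on day 0 and at 392, 496 and 525 CPM on day 18 (log2 fold change -0.46 ± 0.26, adjusted p = 0.434, edgeR). PGR, the progesterone receptor, was at 70.9, 71.8 and 83.6 CPM on day 0 and at 20.2, 47.2 and 32.9 CPM on day 18 (log2 fold change -1.17 ± 0.29, adjusted p = 0.0999, edgeR, and 0.0105 with DESeq2). The groups of either gene did not overlap. In the list of steroid receptors and co-regulators (9 tested of 11), edgeR called 0 genes and DESeq2 called 1 (PGR). At an unadjusted p under 0.05, 1 was higher (PGRMC1) and 1 lower (PGR), beside 7.45% and 7.52% of all genes. The median log2 fold change of the list was -0.36. Steroid metabolism (4 tested of 11) had 0 genes called, 0 with an unadjusted p under 0.05 and 0 called by DESeq2.

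Other gene groups of the cycling endometrium gave no call in edgeR's test. Among uterine secretory proteins and growth factors (11 tested of 21), 4 genes had an unadjusted p under 0.05 on the higher side (AREG, HBEGF, RBP4 and STC1) and 1 on the lower side (LTF), where all genes had 7.45% and 7.52%, and DESeq2 called 1, RBP4. Without library 1 of day 18 the counts were 1 higher (RBP4) and 1 lower (LTF), beside 1101 of all 15563 genes in either direction. RBP4, the retinol-binding protein of uterine secretions, was at 222, 636 and 147 CPM on day 0 and at 7910, 3050 and 2140 CPM on day 18 (log2 fold change 3.70 ± 1.24, adjusted p = 0.184, edgeR, or 2.95 without library 1). On day 18 RBP4 made up most of the summed level of the list, which was 8910, 4130 and 3220 CPM. It did not do so on day 0, where the sum was 1120 to 1900 CPM. HBEGF, a growth factor of the EGF family, was at 6.02, 3.34 and 7.48 CPM on day 0 and at 91.4, 3.35 and 9.23 CPM on day 18, so that its difference lay in 1 library. LTF, lactotransferrin, was at 115, 10.1 and 54.3 CPM on day 0 and at 0.559, 9.73 and 11.8 CPM on day 18 (log2 fold change -3.00 ± 0.997, adjusted p = 0.181, edgeR), and its groups overlapped.

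Extracellular matrix genes (17 tested of 20) had 6 members with an unadjusted p under 0.05 on the lower side (COL1A2, COL3A1, COL5A1, COL6A3, LUM and MMP2) and 1 on the higher side (MMP1), where all genes had 7.52% and 7.45%, with 0 called by edgeR and 1, COL3A1, called lower by DESeq2. COL3A1, a fibrillar collagen, was at 16200, 14300 and 17300 CPM on day 0 and at 6260, 9150 and 9470 CPM on day 18 (log2 fold change -0.94 ± 0.25, adjusted p = 0.116, edgeR, or -0.78 without library 1). The groups did not overlap, and library 1 was again the farthest from day 0. Without library 1 of day 18, 1 member had an unadjusted p under 0.05 on the lower side (COL3A1) and 1 on the higher side (MMP1), beside 1101 of all 15563 genes in either direction. The median log2 fold change of the list was -0.44, and -0.16 without library 1. Its members COL3A1, DCN and LUM are also among the stromal markers, whose sum was lower on day 18 in every library and is mostly COL3A1. VIM, the remaining stromal marker tested, was at 1820, 1110 and 1180 CPM on day 0 and at 1390, 2720 and 2180 CPM on day 18, with a higher mean and overlapping groups (log2 fold change 0.62 ± 0.37, adjusted p = 0.450, edgeR, or 0.84 without library 1). The part of stromal cell numbers was not tested. Ion and water transport genes (10 tested of 16) had 2 members with an unadjusted p under 0.05 on the higher side and 0 on the lower side, where all genes had 7.45% and 7.52%. DESeq2 called 1 of these 2, TRPV6. TRPV6, an epithelial calcium channel, was at 36.1, 22.8 and 36.4 CPM on day 0 and at 406, 107 and 151 CPM on day 18 (log2 fold change 2.80 ± 0.64, adjusted p = 0.0761, edgeR, or 2.02 without library 1). CFTR, the chloride channel, was at 98.5, 48.5 and 50.5 CPM on day 0 and at 166, 134 and 128 CPM on day 18 (log2 fold change 1.12 ± 0.39, adjusted p = 0.206, edgeR).

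Cell cycle genes showed how unlike the day 18 gilts were. The 14 tested genes (of 20) summed to 480, 289 and 328 CPM on day 0 and to 66.7, 403 and 226 CPM on day 18. Library 1 of day 18 thus lay far below the other 5 libraries, whereas library 2 lay within the range of day 0. In this list edgeR called 0 genes, DESeq2 called 0 and 0 reached an unadjusted p under 0.05, and the median log2 fold change was -0.69, or -0.32 without library 1.

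Set against the other days, most of the higher genes had their highest level earlier in the cycle. Of the 20 higher genes, the mean level was highest on day 15 in 12, on day 9 in 3, on day 12 in 2 and on day 18 in 3. SMOC1 had a median of 0.100 CPM on day 0, 129 CPM on day 12, 44.3 CPM on day 15 and 6.78 CPM on day 18. IFNE had medians of 1.34, 47.8, 21.8 and 7.68 CPM on days 0, 9, 15 and 18. On the CPM scale both medians were thus most of the way back from their mid-cycle levels, though still several-fold above day 0. Library 1 of day 18, at 48.9 CPM for SMOC1 and 20.1 CPM for IFNE, was instead close to the day 15 medians. WLS had medians of 248, 860, 923 and 599 CPM on days 0, 12, 15 and 18, and ASAH1 of 546, 1950, 2450 and 1530 CPM on the same days. These genes had come down from day 15 but were still well above their day 0 medians. PLA2G4A had medians of 52.6 CPM on day 0, 98.0 CPM on day 9, 210 CPM on day 15 and 225 CPM on day 18, and PTGS2 of 41.7, 18.6, 572 and 593 CPM. Unlike the genes above, these 2 had medians on day 18 that were not below those of day 15, although the 4 libraries of day 15 ran from 73.3 to 1020 CPM for PTGS2. OXTR had a similar course, with medians of 6.82, 0.960, 22.4 and 30.3 CPM on days 0, 9, 15 and 18. These orders of days are descriptions of medians and were not tested.

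The 9 lower genes were mostly genes of oestrus itself. The mean level was highest on day 0 in 8 of them, a pattern that a call of lower on day 18 favours, and on day 3 in CX3CR1. CHIA had medians of 34.1 CPM on day 0, 6.14 CPM on day 3, 1.51 CPM on day 15 and 4.25 CPM on day 18. MYCN had medians of 11, 2.19, 0.101 and 0.671 CPM on those days. SVEP1 stood at 74.0 CPM on day 0 and between 17.6 and 28.4 CPM in the medians of all later days. CX3CR1 had medians of 15.9, 31.9, 4.06 and 3.68 CPM on days 0, 3, 15 and 18. PARP1 declined in smaller steps, from 235 CPM on day 0 to 155, 109 and 118 CPM on days 3, 15 and 18.

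**Figure D4:**
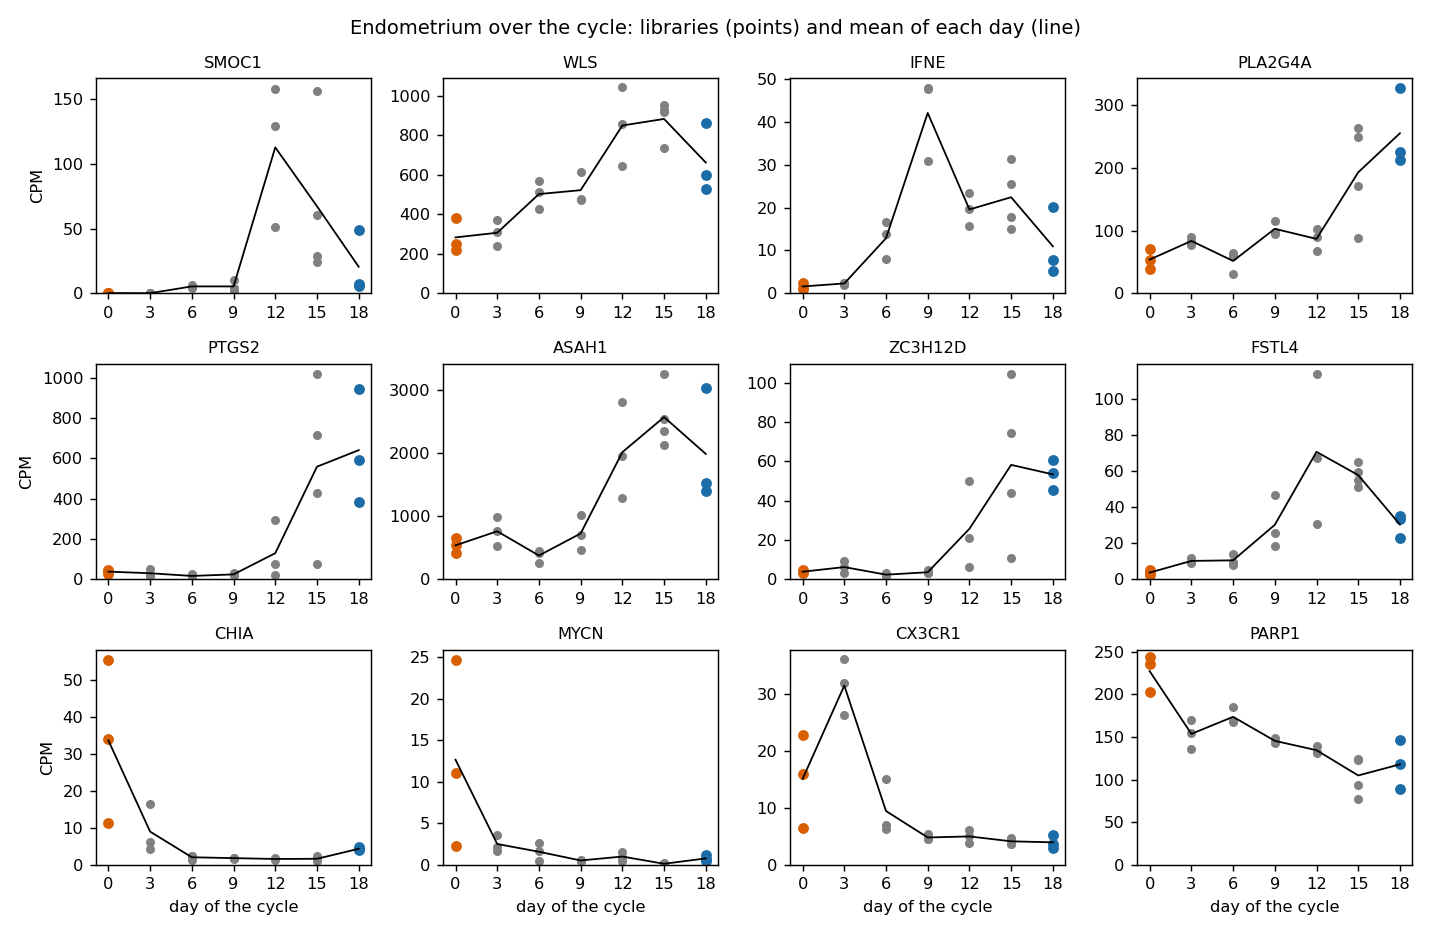
CPM (vertical axes, linear and starting at 0) of 11 called genes and of PTGS2, which was not called, in each endometrial library (points) by day of the cycle (horizontal axes), with the mean of each day as a line, day 0 in orange and day 18 in blue. SMOC1, IFNE, WLS and FSTL4 peak on days 9 to 15 and lie lower on day 18, PLA2G4A and PTGS2 are highest on days 15 and 18, and CHIA and MYCN are highest on day 0.

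To see how far the luteal programme remained, genes were taken that differed between day 9, the middle of the luteal phase, and day 3, a contrast that shares no library with days 0 and 18. By edgeR's test 1916 genes were higher on day 9 (luteal-rise genes) and 2185 were lower (luteal-fall genes). Of the luteal-rise genes, 12 were called higher on day 18 than on day 0 (0.626%, against 0.13% of all genes), among them SMOC1, IFNE, WLS, FSTL4, ENC1, CD247, CLEC16A and BCAR1. In the opposite direction 0 of them were called lower by edgeR, with 50 lower at an unadjusted p under 0.05 and 7 called lower by DESeq2. Not all of the 12 had simply declined since day 9. CD247 had medians of 19.8 CPM on day 9, 13.5 CPM on day 12 and 36.4 CPM on day 18, so its level had risen again late in the cycle. Of the luteal-fall genes, 4 were called lower (0.183%, against 0.0587% of all genes), namely MYCN, CHIA, CX3CR1 and ENSSSCG00000026608, and 1, NLN, was called higher. PLA2G4A, ASAH1, ZC3H12D and PARP1 were in neither list. At an unadjusted p under 0.05, 14.1% of the luteal-rise genes were higher on day 18 (all genes, 7.45%) and 17% of the luteal-fall genes were lower (all genes, 7.52%). Leaving out single libraries changed the calls: the 12 became 1, 23 and 0 without library 1, 2 or 3 of day 0 and 0, 27 and 2 without library 1, 2 or 3 of day 18, and the 4 became 0, 49 and 0 and then 0, 9 and 0 in the same order.

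As whole groups these genes were close to their oestrus level. The median log2 fold change on day 18 against day 0 was 0.12 over the luteal-rise genes and -0.21 over the luteal-fall genes, beside -0.0089 over all genes tested, whereas the medians of day 9 against day 3, which chose them, were 1.15 and -1.35. The mean of log2(CPM + 1) over the luteal-rise genes, relative to the mean of day 0, was -0.057, 0.076 and -0.019 in the day 0 libraries and 0.296, 0.067 and 0.080 in the day 18 libraries. Libraries 2 and 3 of day 18 were thus at the upper end of the day 0 libraries and library 1 was above them, all far under the 1.24 to 1.29 of day 9. Over the luteal-fall genes the values were 0.155, -0.219 and 0.064 on day 0 and -0.353, -0.125 and -0.082 on day 18, so that libraries 2 and 3 lay within day 0 and library 1 lay below it. On day 15 the 4 libraries ran from 0.253 to 0.919 for the luteal-rise genes and from -0.870 to -0.356 for the luteal-fall genes. Library 1 of day 18 was thus close to the day 15 library nearest to 0 for both lists. 

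**Figure D5:**
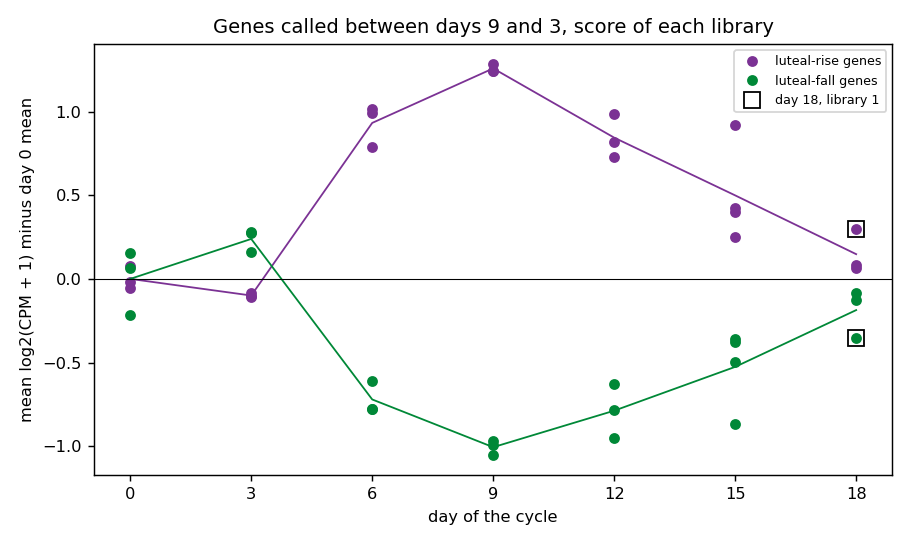
Mean of log2(CPM + 1) over the 1916 luteal-rise genes (purple) and the 2185 luteal-fall genes (green) relative to the mean of day 0 (vertical axis), for each endometrial library by day of the cycle (horizontal axis), with lines through the mean of each day and library 1 of day 18 marked by open squares. The lists were chosen on days 9 and 3, where the groups lie farthest apart by construction. On day 18 libraries 2 and 3 are near 0, at 0.067 and 0.080 for the luteal-rise genes and -0.125 and -0.082 for the luteal-fall genes. Library 1, at 0.296 and -0.353, lies beside library 4 of day 15, at 0.253 and -0.356.

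The same comparison in the other tissues asked whether the genes changed there as well. In 1 fit of all 66 libraries, day 18 differed from day 0 in 69 of 16934 genes in the endometrium (0.407%), 113 in the oviduct (0.667%) and 52 in the ovary (0.307%). Of the 29 endometrial genes, 1 was called in the oviduct, ENSSSCG00000026608, which was at 4.24, 5.94 and 4.68 CPM on day 0 and at 0.596, 0.913 and 0.635 CPM on day 18 there (log2 fold change -2.78, adjusted p = 0.0111, edgeR). In the ovary 0 of the 29 were called by edgeR's test. At an unadjusted p under 0.05, which 14.7% of all genes reached in the oviduct and 8.44% in the ovary, 5 of the 29 differed in the same direction and 0 in the opposite direction in the oviduct, and 5 and 2 did so in the ovary. The 20 higher genes had a median log2 fold change of -0.15 in the oviduct and 0.16 in the ovary, and the 9 lower genes had medians of -0.83 and -0.028. By the study's methods the 3 tissues were collected from the gilts of each day, so libraries of different tissues can share a gilt, but the labels do not tie them to one another, and the fit treats all libraries as independent.

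A gene called in 1 tissue and not in another is not thereby different between them, so the difference of the changes was tested. The endometrial change differed from the oviductal change in 6 genes (0.0354%) and from the ovarian change in 7 genes (0.0413%). CLEC16A and ENSSSCG00000011106 were among the former. CLEC16A was at 17.1, 17.5 and 15.4 CPM on day 0 and at 13.3, 6.90 and 16.9 CPM on day 18 in the oviduct, and its endometrial change exceeded the oviductal one by 1.67 ± 0.33 on the log2 scale (adjusted p = 0.0262, edgeR). ENSSSCG00000011106 was at 32.1, 21.4 and 33.1 CPM on day 0 and at 40.9, 41.5 and 25.3 CPM on day 18 in the oviduct, with a difference of 3.03 ± 0.58 (adjusted p = 0.0262, edgeR), and its difference from the ovary was 4.08 ± 0.58 (adjusted p = 0.000121, edgeR). For IFNE the ovary held 1.85, 4.58 and 12.5 CPM on day 0 and 1.23, 3.64 and 1.34 CPM on day 18, and the endometrial change exceeded the ovarian one by 4.39 ± 0.86 (adjusted p = 0.0194, edgeR). For PLA2G4A the change was 0.14 in the oviduct and -0.016 in the ovary on the log2 scale, and the differences of 2.11 ± 0.50 and 2.27 ± 0.49 did not pass (adjusted p = 0.0918 and 0.0542, edgeR).

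These counts in the fit of all tissues rested on single libraries. The 69 endometrial genes became 16 without library 1 of day 0, 11 without library 3 of day 0, 2 without library 1 of day 18 and 128 without library 2 of day 18. The 113 oviductal genes ranged from 0 without library 1 of oviductal day 0 to 861 without library 3 of oviductal day 18, and the 52 ovarian genes from 5 without library 3 of ovarian day 0 to 128 without library 3 of ovarian day 18. The 6 genes that differed from the oviduct became 0 without library 1 or 3 of endometrial day 0, library 1 of endometrial day 18, library 1 or 3 of oviductal day 0 or library 2 of oviductal day 18. They became 23 without library 2 of endometrial day 0, 15 or 12 without library 2 or 3 of endometrial day 18, 10 without library 2 of oviductal day 0 and 112 without library 3 of oviductal day 18. The 7 genes that differed from the ovary ranged from 2 without library 1 of endometrial day 18 to 37 without library 1 of ovarian day 0.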

How the data were processed

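The authors trimmed the first 13 bases of the paired-end reads, mapped them with TopHat2 to Sus scrofa 10.2 with the Ensembl 78 transcriptome, and deposited raw counts per Ensembl gene and library. The submitters' processing notes name FastQC, featureCounts (a read counter), Cufflinks, Cuffdiff and edgeR without saying what each was used for. The strand setting of the counting and its treatment of reads from similar genes are not given in the sources used here, so reads of overlapping, antisense or near-identical genes (CHIA belongs to a family of similar chitinases) cannot be told apart.

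Counts were analysed with edgeR 4.0.16 in R 4.3.3. All 22 endometrial libraries entered 1 model with day as a factor (TMM, filterByExpr, estimateDisp and glmQLFit, both robust, glmQLFTest), and p-values were adjusted by Benjamini-Hochberg over all genes tested. The 3 tissues were fitted together as 21 groups. Standard errors were derived from the fold change and the F statistic of each gene. The steps were tested on simulated counts. DESeq2 1.42.0 served as an alternative, and figures were drawn in Python 3.11.15 with matplotlib 3.10.9, pandas 2.3.3 and numpy 2.4.6. Intervals and detection limits cover counting error only.

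Libraries were grouped by tissue and day from the column names, and the library numbers are those of the columns. One labelled endometrial sample of day 12 was not analysed here. Symbols came from a reference table, which paired 11804 of 25322 identifiers, 9965 of the 15341 tested. Named genes were the 12 largest rises and 12 largest falls with a symbol, an adjusted p under 0.05, no overlap between groups and no library of the higher group under 10 counts (12 and 8 qualified), the called members of the gene lists, and ESR1, PGR, PTGS2 and OXTR as values. List members without a call are named after their values were seen. The comparison, the gene lists and the tests were chosen with earlier results of these data known. A few genes that met the rule or belong to a list are not reported here. Pathway enrichment was not run, and no sequences are given. Alternatives were other size factors, no filter, DESeq2, a fit of days 0 and 18 alone, a replicate block, a test against a fold of 1.5, other contrasts for the luteal lists, and leaving out each library. Leaving out library 1 of day 18 for the gene lists was added after seeing the data.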

Additional observations from a re-analysis of the deposited data

Results flagged for a closer look

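For 3 genes the change from day 0 to day 18 in the endometrium differed from that in another tissue by the test of the difference itself in the fit of all tissues. The endometrial log2 change of ENSSSCG00000011106 exceeded the oviductal one by 3.03 (adjusted p = 0.0262) and the ovarian one by 4.08 (adjusted p = 0.000121), both by edgeR's quasi-likelihood test. CLEC16A exceeded the oviductal change by 1.67 (adjusted p = 0.0262, edgeR), and IFNE exceeded the ovarian change by 4.39 (adjusted p = 0.0194, edgeR). All 3 are higher in every day 18 library of the endometrium than in every day 0 library, and in each library 1 of day 18 is the highest.

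For WLS, 1 of the 4 endometrial libraries of day 15 was at 736 CPM, far from the others at 916 to 952 CPM by Dixon's criterion. Day 15 was examined in this way for the 29 called genes, for ESR1, PGR, PTGS2 and OXTR and for both luteal scores, and only WLS was marked. Groups of 3 libraries were not tested in this way, and chance alone marks about 1 in 20 groups.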

How the results depend on the processing

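With 3 gilts a day, the number of called genes depended on the test and on single libraries. Of 29 called genes (20 higher, 9 lower), no filter on low counts left 13 (10 and 3), a fit of days 0 and 18 alone gave 19 (17 and 2), of which 3 were shared, DESeq2's Wald test gave 353 (185 and 168), and a test against a fold of 1.5 gave 1 (1 and 0). Leaving out 1 library gave 0 to 109 genes (0 to 77 higher, 0 to 71 lower). DESeq2's size factors in edgeR left all 29.

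Luteal-rise genes called higher were 12, then 7 without the filter, 55 with DESeq2, 3 in the fit of 2 days and 0 to 27 without 1 library. Those called lower were 0, then 7 with DESeq2 and 1 in the fit of 2 days. Luteal-fall genes called lower were 4, then 2, 71, 0 and 0 to 49 in that order. Those called higher were 1, then 0, 14, 2 and 0 to 3, with 0 for lists from day 12 and 2 for lists from day 6. Both median log2 fold changes kept their sign in every alternative.

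In the fit of 3 tissues, leaving out 1 library gave 2 to 128 genes for the endometrium (69), 0 to 861 for the oviduct (113), 5 to 128 for the ovary (52), 0 to 112 for the difference from the oviduct (6) and 2 to 37 for that from the ovary (7). The oviduct had 75 with DESeq2's size factors and 50 without the filter.

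Library numbers did not pair the samples: deviations of same-numbered libraries from their day means correlated at -0.124, -0.065 and 0.251. With the replicate number as a block, 38 genes were called (27 higher, 11 lower), 23 of them shared, and 2 luteal-fall genes were higher.

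Over the 29 named or identified genes and 4 receptors and prostaglandin genes given as values, 194 alternative values stayed on their side of the threshold, 164 lost the call, 5 gained one and 0 reversed. FSTL4 was the 1 gene called in all 5 of these: other size factors, no filter, DESeq2, days 0 and 18 alone, and the block. Each called gene was called in 1 to 4 of the 6 fits that leave out a library. The causes were not tested.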

Other observations

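Some of the largest fitted differences between day 18 and day 0 were not called. Among the higher genes given below the day 18 libraries differed widely, and among the lower ones the libraries differed within both days. The genes below were chosen after their values were seen, from the 5 largest changes in each direction among genes with a symbol, no library of the higher group under 10 counts, no overlap between groups and an unadjusted p under 0.005. PCK1, which encodes the cytosolic phosphoenolpyruvate carboxykinase of gluconeogenesis, was at 0.802, 1.53 and 0 CPM on day 0 and at 593, 6.78 and 143 CPM on day 18 (log2 fold change 8.30 ± 1.89, adjusted p = 0.0761, edgeR). Its medians were 0.106 CPM on day 12 and 38.5 CPM on day 15, so it was barely detected until day 12. NMU, the peptide neuromedin U, was at 2.81, 3.34 and 2.31 CPM on day 0 and at 683, 40.2 and 30.1 CPM on day 18 (log2 fold change 6.47 ± 1.45, adjusted p = 0.0761, edgeR), after medians of 669 CPM on day 12 and 444 CPM on day 15. SLC16A6, a monocarboxylate transporter, was at 0.902, 0.0955 and 1.02 CPM on day 0 and at 114, 1.80 and 4.25 CPM on day 18 (log2 fold change 5.86 ± 1.34, adjusted p = 0.0788, edgeR), after a median of 357 CPM on day 6. Library 1 of day 18 was the highest for all 3 genes, and without it their log2 fold changes were 6.58, 3.63 and 2.15.

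On the lower side, CCNO, a cyclin-like protein needed for multiciliated cells, was at 14.4, 6.40 and 26.3 CPM on day 0 and at 0, 0.981 and 0 CPM on day 18 (496 reads against 12, adjusted p = 0.119, edgeR). PVALB, the calcium-binding protein parvalbumin, was at 22.0, 8.88 and 14.5 CPM on day 0 and at 0.112, 2.21 and 0.653 CPM on day 18 (log2 fold change -3.87 ± 0.87, adjusted p = 0.0761, edgeR). CLDN11, a tight junction claudin, was at 15.5, 5.54 and 19.1 CPM on day 0 and at 0.894, 2.78 and 1.06 CPM on day 18 (log2 fold change -3.06 ± 0.64, adjusted p = 0.0612, edgeR).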
